A study of Mus musculus with 9 samples.

Results

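Retinoic acid pathway genes were read in 3 populations sorted from mouse haematopoietic stem cell (HSC) cultures. The set held 7 genes chosen by symbol from the deposited table of raw counts: the retinoic acid receptor genes Rara, Rarb and Rarg, the retinoid X receptor genes Rxra and Rxrb, the synthesis gene Aldh1a1 and the breakdown gene Cyp26b1. All 7 had a row among the 49585 genes of the table, and 6 passed the count filter and were tested. Cyp26b1 did not.

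The study cultured CD34-CD150+KSL cells from the bone marrow of wild-type C57BL/6 mice (KSL cells carry Kit and Sca-1 and lack lineage markers) and profiled 3 sorted populations by bulk RNA sequencing, with 3 replicates of each. Those sorted as CD201+CD150+CD48-KSL are written CD201+CD48− here. The CD201+CD150+CD48+KSL sort is written CD201+CD48+, and the CD201-KSL sort CD201−. Every culture had F12 medium with 0.1% polyvinyl alcohol (PVA), an insulin, transferrin and selenium supplement, 100 ng/ml thrombopoietin and 10 ng/ml stem cell factor, and no serum or retinoid is named in the labels. For the CD201− sort the titles also name CD150+CD48+, and the treatment labels do not. Culture length is a week in one text and 10 days in the other. The age of the mice is not given, nor whether replicates were separate cultures, so the p-values refer to variation among these libraries alone, and that may be technical.

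Retinoic acid is made from vitamin A in steps: retinol is oxidised to retinal, which is then oxidised to retinoic acid by aldehyde dehydrogenases such as the product of Aldh1a1. The acid binds a receptor of the RAR family, which sits on DNA as a pair with a receptor of the RXR family, recruits corepressors without ligand and coactivators with it. Enzymes of the CYP26 family oxidise the acid, a step of its breakdown. In bone marrow, retinoic acid signalling is known for its part in keeping HSCs quiescent, and RARα is known from acute promyelocytic leukaemia, where its gene is fused to PML.

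RAR and RXR pairs recognise a direct repeat of a hexamer, best known with a spacer of 5 bases. An annotated promoter of Rarb, itself a classic target of retinoic acid, carries such a repeat. It is shown first because the letters let the reader compare a gene that can respond to the acid with the counts measured from it. The start used here lies inside the gene, which spans 16430839 to 17082331, and counts are per gene and not per start. The 250 bases before this annotated start of Rarb (RefSeq, mm10, chr14:16575477-16575726, minus strand, 5′ to 3′) read as follows, with the 2 hexamers of the repeat in capitals.
Rarb: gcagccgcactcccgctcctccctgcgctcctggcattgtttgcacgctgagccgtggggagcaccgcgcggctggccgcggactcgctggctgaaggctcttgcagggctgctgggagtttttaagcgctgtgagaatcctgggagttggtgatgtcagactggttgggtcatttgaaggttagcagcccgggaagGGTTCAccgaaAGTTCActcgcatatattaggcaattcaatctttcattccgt

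The repeat begins at position −53 relative to the start. The hexamers searched were AGGTCA, the variant AGTTCA that differs in 1 letter, likewise the variant GGGTCA, and also GGTTCA which combines both variants, and a match was any pair of them in the same orientation with a spacer of 1, 2 or 5 bases, on either strand. With the spacer of 5 bases, 29 of 32851 promoter windows of the same length (0.0883%) held a match. Among the windows of the 7 genes, that of Rarb was the only one with a match at any of the 3 spacings. Of 23 genes listed as known to respond to retinoic acid, 15 had a window, and Rarb and the breakdown gene Cyp26a1 held the repeat, which are shown together for their likeness.
Rarb: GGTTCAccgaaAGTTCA
Cyp26a1: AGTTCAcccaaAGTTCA

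The Rarb repeat lies at chr14:16575513-16575529 and the Cyp26a1 repeat at chr19:37697776-37697792 (mm10), the latter on the strand opposite to its gene. A match is a description of the letters and not a measured site.

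Windows of Rara and Rxra are shown because the 2 genes moved together, as described below. The first window of each held no receptor hexamer (other annotated starts had windows with 4 single hexamers in Rara and 3 in Rxra), and both held several copies of GGGCGG, the core of a GC box, which is in capitals here on either strand. The first Rara window (RefSeq, mm10, chr11:98937446-98937695, plus strand) had 4 copies and the first Rxra window (chr2:27676951-27677200, plus strand) had 3. Both windows lie inside their annotated genes, which begin at 98927800 (Rara) and 27676445 (Rxra), and which start the cells used was not read. A copy was found in 32.7% of the 32851 windows. Copies also stood in windows of genes that passed in no comparison or were not tested, with 2 and 3 in those of Rxrb and 3 in that of Cyp26b1, and the first Rarg window had 3.
Rara: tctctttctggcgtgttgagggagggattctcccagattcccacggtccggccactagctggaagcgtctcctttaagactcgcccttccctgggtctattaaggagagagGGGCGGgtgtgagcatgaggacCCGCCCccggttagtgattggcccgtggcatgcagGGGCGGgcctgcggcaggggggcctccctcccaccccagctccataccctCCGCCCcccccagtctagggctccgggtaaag
Rxra: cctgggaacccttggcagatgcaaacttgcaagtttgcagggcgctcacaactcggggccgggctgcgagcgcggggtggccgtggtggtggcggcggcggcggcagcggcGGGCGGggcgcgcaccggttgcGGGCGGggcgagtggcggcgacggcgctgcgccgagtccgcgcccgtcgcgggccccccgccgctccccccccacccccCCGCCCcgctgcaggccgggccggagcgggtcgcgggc

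Total counts were 3810123 to 7072885 per library, so that 1 count was worth 0.138 to 0.253 CPM (the usual library-scaled count unit, here with TMM factors). Of 11619 genes tested with edgeR's quasi-likelihood test, 48.1% had an adjusted p (Benjamini-Hochberg) under 0.05 in the contrast of CD201+CD48− with CD201− cells, 29.1% between CD201+CD48+ and CD201− cells and 15.4% between the CD201+ populations. Called genes were split about evenly by direction under TMM scaling (2807 higher and 2778 lower in the first comparison, 1723 and 1661 in the second), whereas scaling by library size alone shifted the median log2 fold change of all genes by 0.17 and 0.13, with 3974 higher and 1685 lower genes in the first and 2701 and 851 in the second. CD201− replicate 3 had the fewest detected genes (13663, against 14725 to 17845 in the other libraries), and results that rest on it are given with and without it. The first 2 comparisons share the CD201− libraries. In bulk samples, fewer cells of a type and less RNA per cell cannot be told apart. Of 10 tested HSC genes, 6 were higher and 3 lower in CD201+CD48− than CD201− cells, beside 24.2% and 23.9% of all genes tested. Procr, among the higher genes, encodes CD201, by which these cells were sorted, so its direction is no separate result. Gata2 was among the lower genes, and Hoxb5 was at 0 in CD201− cells.

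Rara and Rxra were lowest in CD201− cells, intermediate in CD201+CD48+ cells and highest in CD201+CD48− cells, Rarg followed with a smaller difference, and Aldh1a1 was highest in CD201− cells. Rarb and Rxrb did not pass in any of the 3 comparisons, and Cyp26b1 was at the limit of detection. In CD201+CD48− against CD201− cells 3 of the 6 tested genes were higher and 1 was lower, beside 24.2% and 23.9% of all genes tested in these directions. In CD201+CD48+ against CD201− cells 2 were higher and 1 lower, beside 14.8% and 14.3%. Between CD201+CD48− and CD201+CD48+ cells 3 were higher and 0 lower, beside 9.05% and 6.31%. Replicates did not overlap for 4 of the 6 in each comparison, beside 55.2%, 41.7% and 40.7% of all genes tested. The median log2 fold change of the 6 was 0.30, 0.14 and 0.43 in the 3 comparisons, against medians near 0 for all genes (0.0032, −0.0022 and −0.0054). Regardless of sign, the median size of change over all genes was 0.34, 0.23 and 0.17.

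**Figure D1:**
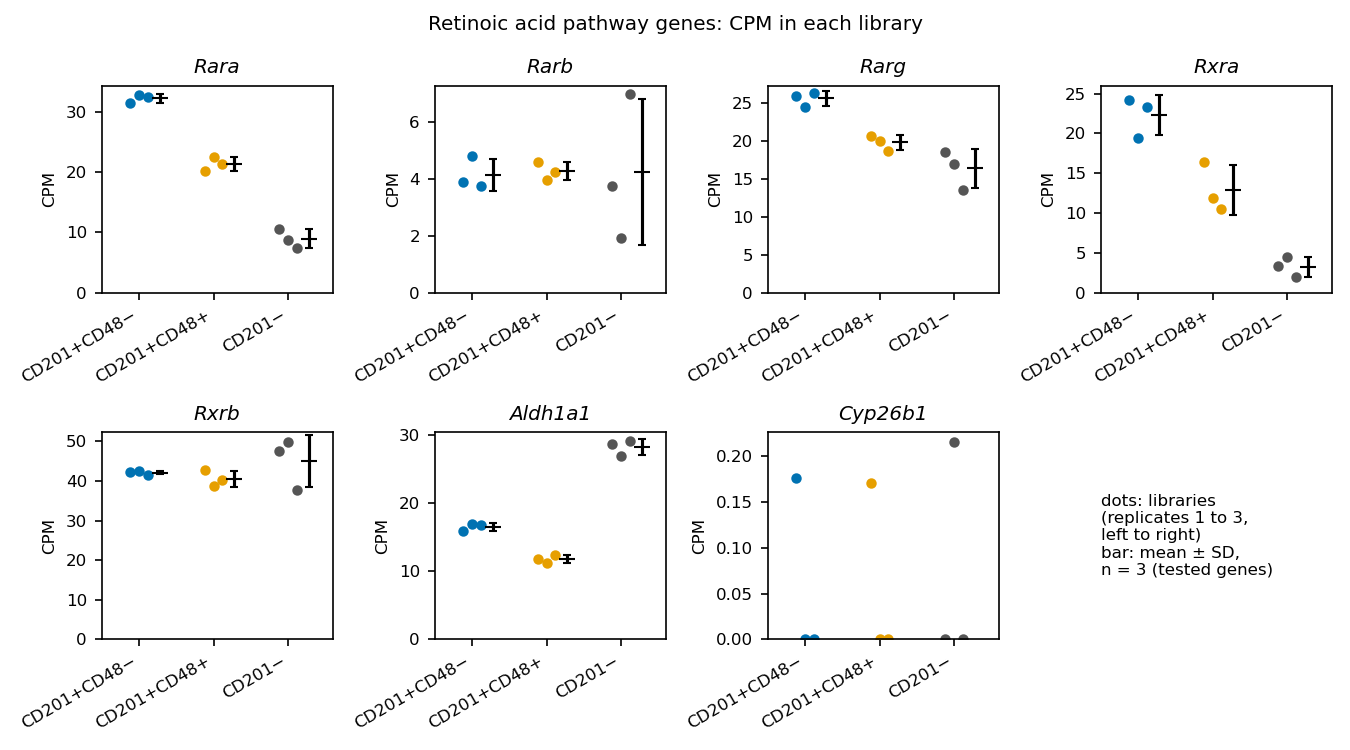
CPM of the 7 genes (vertical axes, each from 0) in the 9 libraries (dots), by sorted population, with mean ± SD over 3 replicates for tested genes. Rara and Rxra step down from CD201+CD48− through CD201+CD48+ to CD201− cells with no overlap, Aldh1a1 is highest in CD201− cells, and Cyp26b1 has 1 count in 3 of the 9 libraries.

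Rara encodes RARα (chromosome 11, 98927800 to 98974942, mm10, protein coding). Its counts were 178, 130 and 147 in CD201+CD48− replicates 1 to 3, 118, 119 and 155 in CD201+CD48+ replicates, and 48, 41 and 34 in CD201− replicates. Scaled to CPM, these were 31.4, 32.8 and 32.5, then 20.2, 22.5 and 21.3, then 10.6, 8.82 and 7.45. The 3 groups did not overlap, and every CD201+CD48− library was above every CD201+CD48+ library. The mean was 3.59-fold higher in CD201+CD48− than in CD201− cells (32.3 ± 0.749 against 8.97 ± 1.59 CPM; SD, n = 3 each; log2 fold change 1.84 ± 0.14, SE; edgeR adjusted p = 6.28e-08). It was 2.37-fold higher in CD201+CD48+ cells, with 21.3 ± 1.16 CPM, than in CD201− cells (log2 fold change 1.25 ± 0.15, edgeR adjusted p = 1.5e-05). Between the CD201+ populations the log2 fold change was 0.60 ± 0.12 (edgeR adjusted p = 0.00293). Of all genes tested, 5.09% had a larger absolute fold change than Rara in the first comparison, 4.85% in the second and 9.52% in the third. The 3 calls stood in all 16 alternatives tried.

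Rarg encodes RARγ, the receptor whose loss is known to reduce HSC numbers (chromosome 15, 102234938 to 102257522). Its counts reached 147, 97 and 119 for CD201+CD48− libraries, 121, 106 and 136 in CD201+CD48+ libraries and 84, 79 and 62 in CD201− libraries. The CPM were 26.0, 24.5 and 26.3, then 20.7, 20.0 and 18.7, then 18.6, 17.0 and 13.6. The groups did not overlap, though the highest CD201− library and the lowest CD201+CD48+ library were nearly level. Rarg was higher in CD201+CD48− than in CD201− cells (25.6 ± 0.968 against 16.4 ± 2.56 CPM; SD, n = 3 each; log2 fold change 0.64 ± 0.13, SE; edgeR adjusted p = 0.00103). The other comparisons did not pass, at 0.27 ± 0.14 for CD201+CD48+ against CD201− cells (95% interval −0.02 to 0.56, edgeR adjusted p = 0.148) and 0.38 ± 0.13 between the CD201+ populations (0.11 to 0.64, edgeR adjusted p = 0.0573). The latter passed in a fit of the 6 CD201+ libraries alone (edgeR adjusted p = 0.0133) and without CD201− replicate 3 (edgeR adjusted p = 0.0129), and its adjusted p ran from 0.0129 to 0.204 over 16 alternatives.

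Rarb encodes RARβ (chromosome 14, 16430839 to 17082331) and carries the repeat printed above. Counts were 22, 19 and 17 in CD201+CD48− libraries, 27, 21 and 31 in CD201+CD48+ libraries, and 17, 9 and 32 in CD201− libraries. The CPM were 3.88, 4.80 and 3.76, then 4.61, 3.97 and 4.26, then 3.76, 1.94 and 7.01. All 3 groups overlapped, and CD201− cells held both the lowest library, replicate 2, and the highest, replicate 3. Means were 4.15 ± 0.567, 4.28 ± 0.323 and 4.24 ± 2.57 CPM (SD, n = 3 each). The log2 fold change was −0.04 ± 0.36 between CD201+CD48− and CD201− cells (SE; 95% interval −0.81 to 0.73; edgeR adjusted p = 0.941), 0.02 ± 0.35 for CD201+CD48+ over CD201− cells (−0.71 to 0.76; edgeR adjusted p = 0.973) and −0.06 ± 0.35 between the CD201+ populations (−0.79 to 0.68; edgeR adjusted p = 0.936). These intervals are wide, and CD201− replicates 2 and 3 held 9 and 32 counts at totals of 4838986 and 5216781. Without CD201− replicate 3 the first became 0.53 (edgeR adjusted p = 0.228) and the second 0.59 (edgeR adjusted p = 0.185).

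Rxra encodes RXRα, a shared partner of RARs and of several other nuclear receptors (chromosome 2, 27676445 to 27763319). Its counts were 137, 77 and 105 for CD201+CD48− libraries, 96, 63 and 76 in CD201+CD48+ libraries and 15, 21 and 9 in CD201− libraries. The CPM were 24.2, 19.5 and 23.2, then 16.4, 11.9 and 10.5, then 3.32, 4.52 and 1.97. The 3 groups did not overlap, and CD201− libraries lay far below the rest. Rxra was 6.80-fold higher in CD201+CD48− than in CD201− cells (22.3 ± 2.51 against 3.27 ± 1.27 CPM; SD, n = 3 each; log2 fold change 2.77 ± 0.25, SE; edgeR adjusted p = 3.99e-07). It was 3.90-fold higher in CD201+CD48+ cells (12.9 ± 3.10 CPM) than in CD201− cells (log2 fold change 1.96 ± 0.27, edgeR adjusted p = 6.6e-05). Only 2.26% of all genes tested had a larger absolute fold change in the first of these comparisons and 1.94% in the second. Without CD201− replicate 3, the library with the fewest Rxra counts, the 2 values were 2.51 and 1.70.

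Between the CD201+ populations Rxra had a log2 fold change of 0.80 ± 0.19 (SE; edgeR adjusted p = 0.00913). This call was lost without CD201+CD48− replicate 1 (0.74, edgeR adjusted p = 0.0626), without CD201+CD48+ replicate 3 (0.65, edgeR adjusted p = 0.0703) and with limma on the authors' normalized values (0.80, adjusted p = 0.058). Over the 16 alternatives its adjusted p ran from 1.35e-05 to 0.0703.

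Rxrb encodes RXRβ (chromosome 17, 34031812 to 34038403). Counts were 239, 168 and 188, then 250, 205 and 292, then 215, 232 and 172 in the same order of populations. The CPM were 42.2, 42.4 and 41.6 in CD201+CD48− libraries, 42.7, 38.7 and 40.2 in CD201+CD48+ libraries and 47.6, 49.9 and 37.7 in CD201− libraries. The groups overlapped, with CD201− replicate 3 the lowest of all 9 and replicates 1 and 2 of that group the highest. Log2 fold changes were −0.10 ± 0.11 (SE; 95% interval −0.33 to 0.14; edgeR adjusted p = 0.489), −0.15 ± 0.11 (−0.38 to 0.08; edgeR adjusted p = 0.313) and 0.05 ± 0.11 (−0.18 to 0.29; edgeR adjusted p = 0.799). Without CD201− replicate 3 Rxrb passed, with CD201+CD48+ cells below CD201− cells (−0.26, edgeR adjusted p = 0.0365; 0.0365 to 0.908 over 16 alternatives). The third gene of the family, Rxrg, had 1 count in all 9 libraries.

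**Figure D2:**
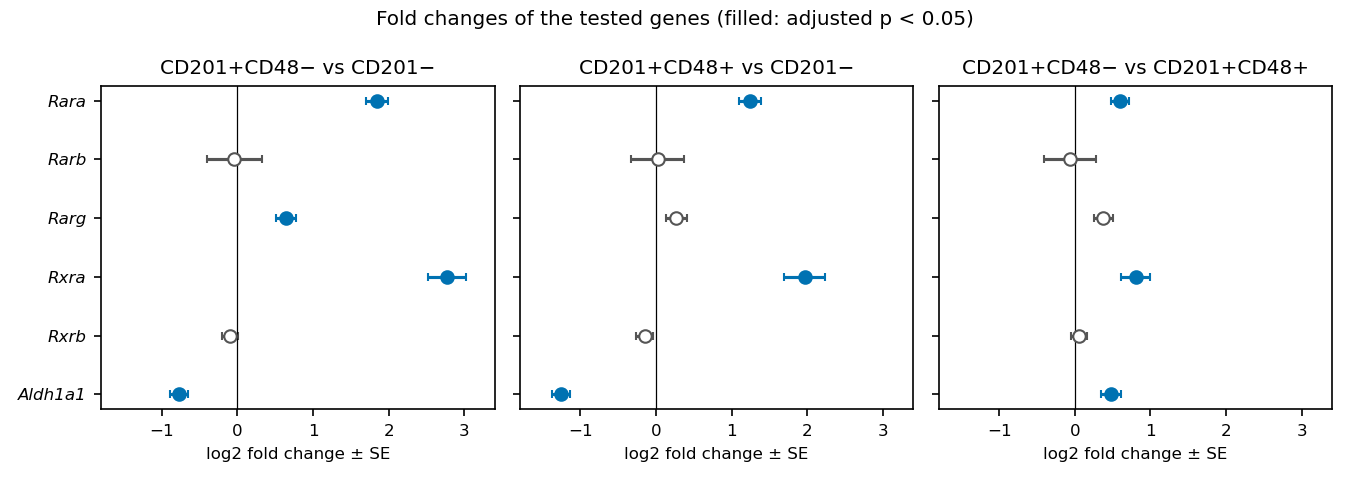
Log2 fold change (horizontal axis) ± SE of the 6 tested genes in each comparison, from the edgeR fit of all 9 libraries. Filled points passed an adjusted p of 0.05, and Rxra has the largest change in both comparisons with CD201− cells (2.77 and 1.96).

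The make-up of each receptor family was read within libraries, which needs no scaling between them. Rara counts were 51.3%, 52.8% and 51.9% of the RAR total for CD201+CD48− libraries, 44.4%, 48.4% and 48.1% in CD201+CD48+ libraries, and 32.2%, 31.8% and 26.6% in CD201− libraries. Rarg held the largest share in CD201− cells, with 55.4% ± 6.46 (SD, n = 3) against 41.3% ± 1.61 in CD201+CD48− cells. Rxra counts were 36.4%, 31.4% and 35.8% of the RXR total for CD201+CD48− libraries, 27.7%, 23.4% and 20.7% in CD201+CD48+ libraries, and 6.52%, 8.30% and 4.97% in CD201− libraries. Neither set of shares overlapped between any 2 populations.

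The log2 ratio of Rxra to Rxrb counts differed by 2.93 between CD201+CD48− and CD201− cells and by 2.18 between CD201+CD48+ and CD201− cells. That of Rara to Rarg differed by 1.21 and 0.98. All 4 gave p = 0.1 in a two-sided exact permutation test, the smallest p that 3 against 3 libraries allow (adjusted p = 0.113 over 9 ratios tested). Shares are of counts and not of transcripts, since the genes differ in length.

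**Figure D3:**
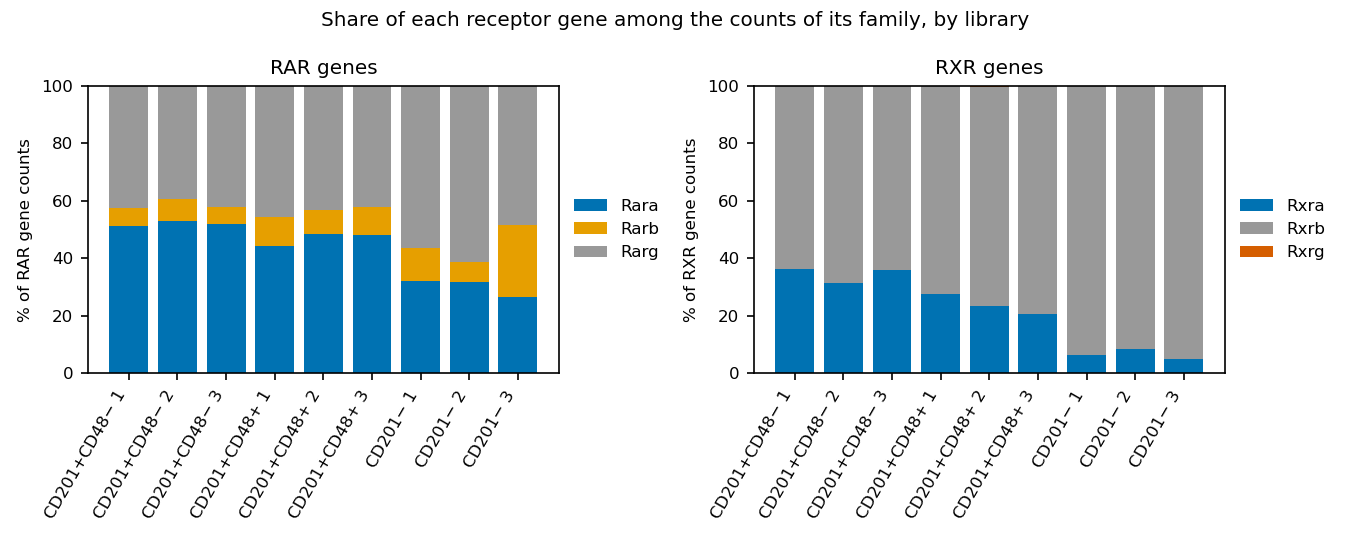
Share of each gene (percent, vertical axis) among the counts of the RAR genes (left) and RXR genes (right) in each library. Rara falls from 52.0% to 30.2% and Rxra from 34.6% to 6.60% between the means of CD201+CD48− and CD201− libraries, and Rxrg is too low to be seen.

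Aldh1a1 encodes a retinaldehyde dehydrogenase (chromosome 19, 20492583 to 20643463). Counts were 90, 67 and 76 in CD201+CD48− libraries, 69, 59 and 90 in CD201+CD48+ libraries and 130, 125 and 133 in CD201− libraries. The CPM were 15.9, 16.9 and 16.8, then 11.8, 11.2 and 12.4, then 28.8, 26.9 and 29.1. The groups did not overlap, and their order set Aldh1a1 apart from Rara, Rarg and Rxra: CD201− cells were highest and CD201+CD48+ cells lowest. The means of Rxrb had this order too, but its groups overlapped. CD201− cells exceeded CD201+CD48− cells 1.71-fold (28.3 ± 1.21 against 16.5 ± 0.573 CPM; SD, n = 3 each; log2 fold change of CD201+CD48− over CD201− cells −0.78 ± 0.12, SE; edgeR adjusted p = 8.18e-05). They exceeded CD201+CD48+ cells (11.8 ± 0.614 CPM) 2.39-fold (log2 fold change −1.26 ± 0.12, edgeR adjusted p = 2.58e-06). CD201+CD48− cells were above CD201+CD48+ cells by 0.48 ± 0.13 (edgeR adjusted p = 0.0202), a call that was lost in 7 of 16 alternatives, 5 of which left out 1 of the 6 CD201+ libraries (adjusted p from 0.00892 to 0.0786; 0.0505 to 0.0786 in those 5).

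Aldh1a7, a close relative of Aldh1a1 on the same chromosome, could share reads with it, and the rule for counting such reads is not stated, so its split from Aldh1a1 is uncertain. Aldh1a7 averaged 2.38, 1.31 and 2.26 CPM in the 3 populations and passed in no comparison. On either strand, Rara overlapped 2 annotated genes, Rarb 4 and Aldh1a1 3, and the use of strand is not stated. The other retinaldehyde dehydrogenase genes were near the limit of detection, with 3 counts of Aldh1a2 and 15 of Aldh1a3 over all 9 libraries.

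Cyp26b1 encodes an enzyme of the CYP26 family, which oxidises retinoic acid (chromosome 6, 84571414 to 84593908). It had 1 count in CD201+CD48− replicate 1, 1 in CD201+CD48+ replicate 1 and 1 in CD201− replicate 2, and 0 in the other 6 libraries. The group level was 0.0707 CPM in CD201+CD48− cells (exact 95% Poisson interval 0.00179 to 0.394, counting error only), 0.0543 in CD201+CD48+ cells (0.00137 to 0.303) and 0.0728 in CD201− cells (0.00184 to 0.406). No difference was detectable at this depth (exact permutation p = 1 in each of the 3 comparisons, two-sided, with 0.1 the smallest possible). The 2 other enzymes of the family were as low, with 1 count of Cyp26a1 and 5 of Cyp26c1 in all libraries.

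Levels of different genes were compared per length, as CPM per kilobase of exon in GENCODE gene models (union of exons). In CD201+CD48− cells the order was Rxrb (9.75 ± 0.0976; SD, n = 3), Rarg (5.53 ± 0.209), Rara (5.13 ± 0.119), Rxra (3.25 ± 0.365), Aldh1a1 (1.54 ± 0.0533), Rarb (0.496 ± 0.0678) and Cyp26b1 (0.0103). With the longest transcript as the length, Rara (9.19 ± 0.213) stood above Rarg (8.67 ± 0.328), so the order of this pair depends on the gene model. In CD201− cells Rxrb (10.4 ± 1.50) and Rarg (3.54 ± 0.552) led, and Aldh1a1 (2.63 ± 0.112), Rara (1.42 ± 0.253), Rarb (0.506 ± 0.307) and Rxra (0.476 ± 0.185) followed, the last 2 within their spread.

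**Figure D4:**
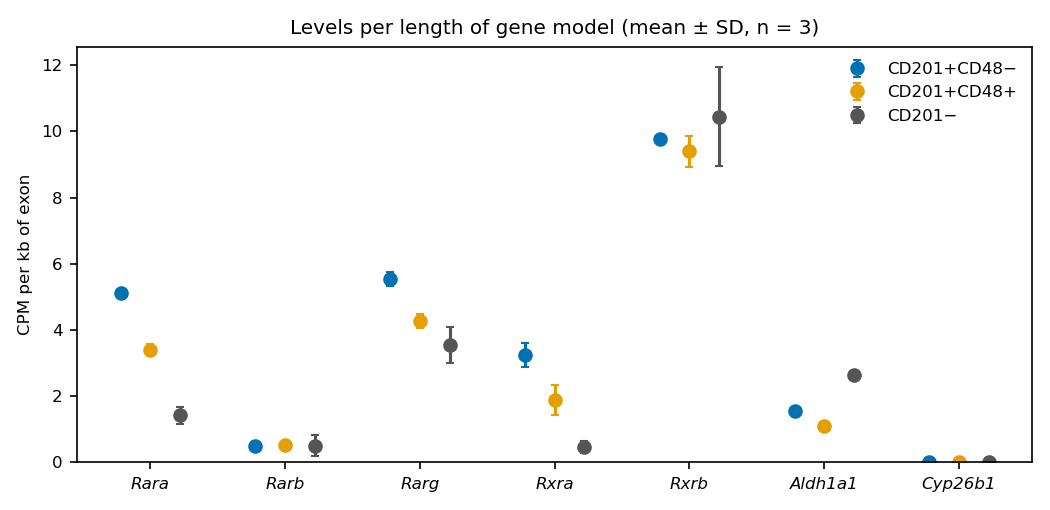
Level per length (CPM per kilobase of exon, vertical axis) of the 7 genes in the 3 populations, mean ± SD over 3 libraries. Rxrb is the highest gene in every population (9.39 to 10.4), and Rara and Rxra reach 5.13 and 3.25 in CD201+CD48− cells but 1.42 and 0.476 in CD201− cells.

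Across the 9 libraries the log2 CPM of Rara and Rxra had a Pearson correlation of 0.97, and those of Rarg with them 0.92 and 0.92, as a description over libraries that share 3 groups. Aldh1a1 had −0.74 with Rara. The 5 genes most like Rara by this measure, among tested genes without a predicted or clone name, were Zbtb4, Trp53i11, Fstl1, Gbp5 and Ms4a6c (0.99 to 1.00). Those most like Rxra were Nfic, C1rl, Lamb2, Extl3 and Nav2 (0.99 to 1.00). Fstl1 averaged 65.2, 22.9 and 3.21 CPM and Lamb2 44.8, 15.5 and 0.869 CPM in CD201+CD48−, CD201+CD48+ and CD201− cells. Steps were smaller for the most correlated gene of each list, with 25.9, 19.3 and 9.04 CPM for Zbtb4 and 138.9, 113.1 and 69.2 CPM for Nfic.

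Beyond the 7 genes, 81 genes of the pathway were listed by role, and 45 of them passed the count filter. In CD201+CD48− against CD201− cells 11 of the 45 were higher and 11 lower, in CD201+CD48+ against CD201− cells 7 and 5, and between the CD201+ populations 9 and 2. The medians were 0.04, −0.03 and 0.06 on the log2 scale. Shares of 24.4% and 24.4% higher and lower in the first comparison stood beside a background of 24.2% and 23.9%. In the second comparison 15.6% and 11.1% stood beside 14.8% and 14.3%, and between the CD201+ populations 20% and 4.44% stood beside 9.05% and 6.31%, where the count of 11 calls ran from 6 to 18 when 1 library was left out (18 without CD201− replicate 3). The same background holds for each role below, and no role was tested against another.

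Of the genes of retinol uptake and storage, 3 were tested. Lrp1, a receptor for lipoprotein remnants that carry retinyl esters, averaged 11.3 ± 1.53, 6.62 ± 1.09 and 1.82 ± 0.101 CPM (SD, n = 3 each). It passed as higher in the CD201+ cells of both comparisons with CD201− cells and in CD201+CD48− over CD201+CD48+ cells, where the call was lost in 5 of 16 alternatives. Dgat1, which can esterify retinol, did not pass in any. Stra6, the receptor for the plasma retinol carrier, had 3 counts in all, and Lrat, the esterifying enzyme of stores, had 0 in all 9 libraries.

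Of 11 tested genes of retinol and retinal oxidation or reduction, 3 were higher and 1 lower in the first comparison (27.3% and 9.09%, beside 24.2% and 23.9% of all genes tested). Dhrs3, a retinal reductase that is itself induced by retinoic acid, had 13.4, 10.6 and 14.4 CPM in CD201+CD48− libraries, 2.56, 2.83 and 2.34 in CD201+CD48+ libraries and 3.98, 2.58 and 0.219 in CD201− libraries. CD201+CD48− libraries stood alone at the top, and the other groups overlapped. Its log2 fold change was 2.50 ± 0.39 over CD201− cells (SE; edgeR adjusted p = 1.12e-04; 1.97 without CD201− replicate 3, which held 1 count) and 2.32 ± 0.36 over CD201+CD48+ cells (5.15e-04). Rdh12 averaged 15.9 ± 1.31, 11.4 ± 0.559 and 3.71 ± 0.425 CPM, with log2 fold changes over CD201− cells of 2.09 ± 0.19 and 1.62 ± 0.19, both past the threshold. Its call between the CD201+ populations (0.47 ± 0.15, edgeR adjusted p = 0.0431) was lost in 10 of 16 alternatives. Rdh14 (0.43 ± 0.15, adjusted p = 0.0253) and Adh5 (−0.25 ± 0.09, adjusted p = 0.0343) passed in the first comparison alone and lost the call in 5 and 9 of 16 alternatives. Rdh10, the main retinol dehydrogenase of embryos, averaged 9.28, 8.44 and 9.85 CPM and did not pass in any comparison.

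Fabp5 went the other way. This fatty acid-binding protein can carry retinoic acid, and its gene had 47.5, 51.5 and 54.0 CPM in CD201+CD48− libraries, 76.9, 79.2 and 71.2 in CD201+CD48+ libraries and 135.2, 132.8 and 154.7 in CD201− libraries, with no overlap. Log2 fold changes were −1.47 ± 0.09 (SE; edgeR adjusted p = 5.17e-09) and −0.90 ± 0.08 (2.19e-06) against CD201− cells and −0.57 ± 0.09 (5.24e-04) between the CD201+ populations. Of the 2 genes of the dedicated carriers of retinoic acid, Crabp1 had 0 counts and Crabp2 had 1 in all libraries.

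Genes of other nuclear receptors that pair with RXR included 4 higher and 0 lower of 8 tested in CD201+CD48− against CD201− cells, beside 24.2% and 23.9% of all genes tested. Ppard, a receptor for fatty acids, averaged 28.2 ± 2.64, 17.1 ± 0.911 and 11.1 ± 0.481 CPM (SD, n = 3 each) and was higher in all 3 comparisons (1.34 ± 0.13, 0.62 ± 0.14 and 0.72 ± 0.12). The vitamin D receptor gene Vdr averaged 20.3 ± 1.43, 13.5 ± 1.23 and 10.8 ± 1.85 CPM, and was higher in CD201+CD48− cells than in CD201− (0.91 ± 0.16) and CD201+CD48+ cells (0.60 ± 0.15), the latter lost in 2 of 16 alternatives. The thyroid hormone receptor gene Thrb was higher in CD201+CD48− (1.14 ± 0.29) and CD201+CD48+ cells (0.91 ± 0.28, lost in 5 of 16 alternatives) than in CD201− cells. Nr4a1, an immediate early gene, was higher in CD201+CD48− than in CD201− cells (1.15 ± 0.24), and its call over CD201+CD48+ cells (0.67 ± 0.21, adjusted p = 0.0455) was lost in 10 of 16. Pparg, named after its values were seen, stood out as lowest in CD201+CD48+ cells, with 10, 10 and 10 counts for CD201+CD48− libraries, 1, 3 and 5 in CD201+CD48+ libraries and 10, 9 and 15 in CD201− libraries.

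Of 8 corepressor genes 5 passed as lower in the first comparison and 0 as higher, by at most 0.70 on the log2 scale, beside 23.9% lower and 24.2% higher of all genes tested. Examples are Ncor1 at 647.9 against 815.4 CPM (−0.33 ± 0.10, adjusted p = 0.0151, lost in 2 of 16 alternatives) and Tbl1xr1 at 202.4 against 285.8 CPM (−0.50 ± 0.07, adjusted p = 4.02e-05). Sin3a (−0.32 ± 0.08, lost in 1 of 16) and Hdac3 (−0.24 ± 0.08, lost in 5) were the smaller ones. Gps2 rested on CD201− replicate 3 for its size, which had 144.4 CPM against 81.9 and 76.2 in replicates 1 and 2, and went from −0.70 ± 0.22 to −0.35 without it. Its call was lost in 2 of 16 alternatives, with no filter on low counts and without CD201+CD48− replicate 1 (adjusted p from 0.00106 to 0.0749 over the 16). Of 10 coactivator genes 4 passed, beside 48.1% of all genes tested: 1 was higher, Ncoa1 (83.8 against 52.2 CPM, 0.68 ± 0.11), and 3 lower, Prmt1 (−0.68 ± 0.08), Ncoa3 (−0.48 ± 0.09) and Carm1 (−0.24 ± 0.09, lost in 12 of 16). Scaling by library size alone kept the sign of each of these 9 genes in this comparison, and ended the calls of Ncor1, Sin3a, Hdac3 and Carm1.

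Of 23 genes listed as responsive to retinoic acid, 8 were tested, Rarb among them. In the first comparison 3 were higher and 1 lower (37.5% and 12.5%), so that 4 of 8 passed beside 48.1% of all genes tested. Beside Dhrs3, Gprc5b, of the family of receptors induced by retinoic acid, was higher (14.8 ± 0.772 against 1.67 ± 0.881 CPM; SD, n = 3 each; 3.13 ± 0.29, SE; edgeR adjusted p = 4.65e-07), and it was also higher in CD201+CD48+ cells (10.0 ± 1.76 CPM; 2.56 ± 0.30, 1.6e-05). Rai1 was lower (−0.46 ± 0.10, 0.00108). The transglutaminase gene Tgm2 was higher in CD201+CD48− than in CD201+CD48+ cells (56.7 against 40.3 CPM, 0.49 ± 0.11, 0.00891, lost in 2 of 16 alternatives) and did not pass against CD201− cells. Stra8 had 0 counts and Cyp26a1 and Crabp2 had 1 each in all 9 libraries.

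**Figure D5:**
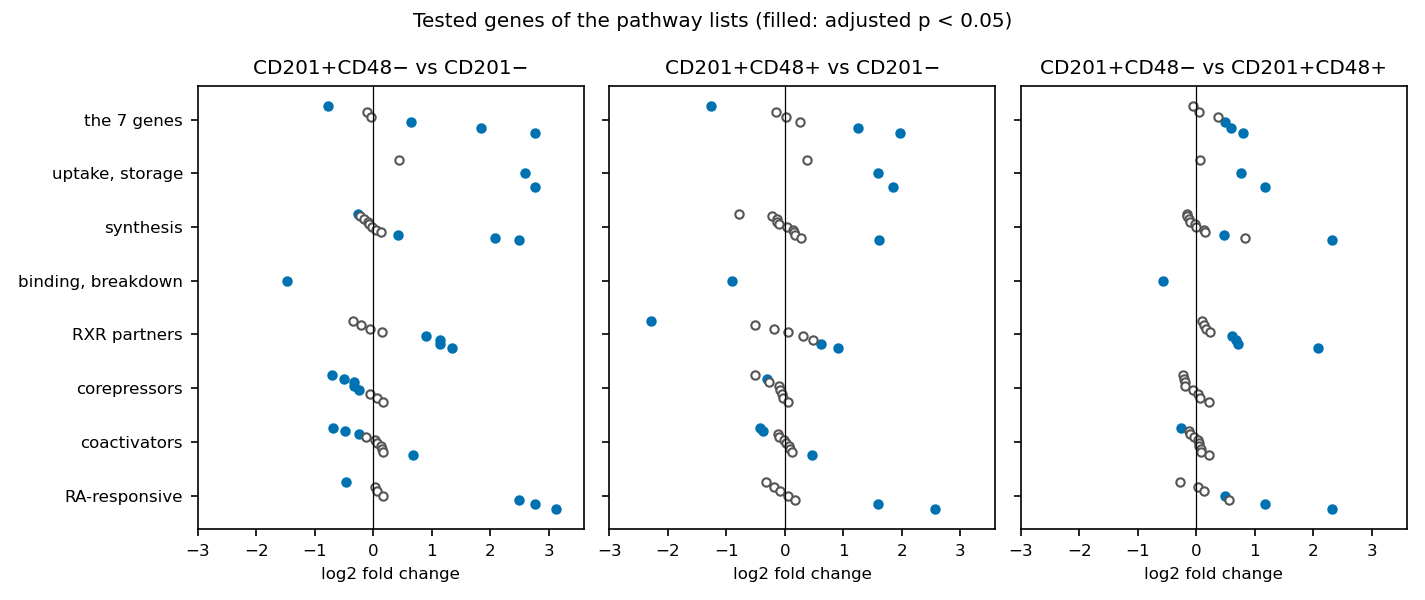
Log2 fold change (horizontal axis) of each tested gene by role in the pathway (rows), for the 3 comparisons. Filled points passed an adjusted p of 0.05. In the first comparison the 3 uptake and storage genes lie above 0, 2 of them called, and the 5 called corepressor genes of 8 lie below it. Of all genes tested, 24.2% were called higher and 23.9% lower there.

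Markers of other cells were summed in each library, and not all sums followed the order of Rara and Rxra. The summed level of 12 markers of mature myeloid cells, which are known to express Rxra, ran from 27.8 to 28.3 CPM in CD201+CD48− libraries, 14.2 to 17.9 in CD201+CD48+ libraries and 12.8 to 14.9 in CD201− libraries. S100a9, Retnlg and Ly6g were at 0 in all 3 populations, and 4 of the 12 passed the count filter. The sum of 11 megakaryocyte markers ran from 1669 to 1814, 364.7 to 381.9 and 618.9 to 726.0 CPM, an order that the receptor genes did not share. The sum of 9 erythroid markers ran from 552.1 to 588.9, 456.4 to 492.1 and 300.0 to 352.2 CPM, with Hba-a1 and Car1 at 0 in all 3. Of these 9, 3 passed the count filter.

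Highest in CD201− cells, as Aldh1a1 was, 10 mast cell and basophil markers summed to 5.09 to 9.60, 3.44 to 4.72 and 35.9 to 44.3 CPM, with Mcpt4, Cma1 and Tpsb2 at 0 in all populations. Of these 10, only Cpa3 and Gzmb passed the count filter. The 12 stromal and endothelial markers summed to 188.7 to 204.6, 156.8 to 174.5 and 218.5 to 224.4 CPM, with Col3a1 at 0 in CD201+CD48− and CD201− cells. Not all single markers of that list followed its sum. Of 6 tested, Cdh5, Emcn, Kdr and Tek were higher and Pdgfrb and Pecam1 lower in CD201+CD48− against CD201− cells. In these directions 24.2% and 23.9% of all genes tested passed. The 12 lymphoid markers summed to 28.6 to 29.7, 41.2 to 48.2 and 12.3 to 17.9 CPM, and Cd3e, Cd3g and Rag2 were at 0 in all populations. Of the 12, 7, 6 and 6 were at 0 in the 3 populations, and only Cd79b and Flt3 passed the count filter. The part of these cells in the results was not tested.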

How the data were processed

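Bulk RNA was measured in 9 libraries, 3 per population, from over 5000 sorted cells each, with paired reads of 36 nt per the labels' protocols. The deposited raw table holds counts per gene symbol, not normalized by the authors. The submitters' processing notes name mm10 and DESeq2, both without versions. The aligner, counter, gene annotation and strand setting were not given in the sources used here. The deposited normalized signal equals these counts divided by 1 factor per sample and served in 1 alternative. Besides the 9 libraries, 3 sample columns of the raw table fit no label and were left out.

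Counts were filtered with filterByExpr (minimum count 10), scaled by TMM and tested with edgeR 4.0.16 (glmQLFit, robust, group as the only factor, all 9 libraries) in R 4.3.3, with Benjamini-Hochberg adjustment over 11619 genes at 0.05. The script was tested on simulated data. Standard errors were derived from the fold change and its F statistic (size over root F), and log2 CPM used a prior count of 2. Alternatives used DESeq2 1.42.0, limma 3.58.1, other scalings, no filter, 2 groups only, a replicate block and 1 library left out. Gene positions and promoters are RefSeq's for GRCm38.p6 (mm10), lengths those of GENCODE M39 on GRCm39.

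Members and lists were chosen with earlier results of these data known. Named are the 7 genes, up to 6 called genes of each list that averaged 5 CPM or more in the higher population, and the 5 genes most correlated with the 2 members of smallest p in a 3-group test. Genes with predicted or clone names were left out of that ranking. One gene that the rule names is not reported here. Figures were drawn with matplotlib 3.10.9.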

Additional observations from a re-analysis of the deposited data

How the results depend on the processing

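Calls of the 7 genes against CD201− cells (4 and 3) did not change in number or identity in the 16 alternatives, except that leaving out CD201− replicate 3 added Rxrb in CD201+CD48+ cells. The 3 calls between the CD201+ populations ranged from 1 to 4 when 1 library was left out, with Rara called in each and alone without CD201+CD48− replicate 1. The 11 calls of other pathway genes there became 7 with DESeq2, 17 in a fit of the 2 groups and 6 to 18 with 1 library left out, 18 without CD201− replicate 3, and calls over all genes there went from 1785 to 3339 in the fit of the 2 groups and to 1023 to 3534 with 1 library left out, 3534 without CD201− replicate 3. The cause was not tested.

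The sign of Rarb against CD201− cells turned for CD201+CD48− cells with library size scaling (0.14), with limma (0.13) and without CD201+CD48− replicate 1 (0.01), CD201+CD48− replicate 3 (0.02) or CD201− replicate 3, with a range of −0.39 to 0.53 when 1 library was left out. For CD201+CD48+ cells it turned without CD201+CD48+ replicate 1 (−0.03), CD201− replicate 1 (−0.06) or CD201− replicate 2 (−0.33), with a range of −0.33 to 0.59. With library size scaling Rxrb turned for CD201+CD48− cells (0.066), and Adh5 (0.039), Carm1 (0.0082), Hdac3 (0.11) and Sin3a (0.050) for CD201+CD48+ cells. In the latter comparison, leaving out 1 library gave −0.067 to 0.022 for Hdac3, turned without CD201+CD48+ replicate 1, and −0.15 to 0.018 for Sin3a and −0.35 to 0.85 for Dhrs3, both turned without CD201− replicate 3. None of these had passed, and the cause was not tested.

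With the longest transcript as length, the mean level over 9 libraries went from 3.31 to 5.94 CPM per kilobase for Rara, 0.505 to 1.03 for Rarb, 4.45 to 6.98 for Rarg, 9.86 to 11.5 for Rxrb and 1.76 to 3.04 for Aldh1a1, since each length is shorter.

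Replicate numbers showed no sign of pairing the samples: deviations of same-numbered libraries correlated from −0.11 to 0.04, and other pairs from −0.07 to 0.10. Of 9 libraries, 0 correlated best with its own number. With 3 libraries a group this cannot show that they were unpaired. With the replicate block the calls of the 7 genes were 4, 3 and 3 and those of other pathway genes 20, 12 and 8. Depth limits what can be said of Cyp26b1.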
